A study of Mus musculus with 10 samples.

Results

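The promoters described here belong to the replication-dependent core histone genes of the mouse, measured for DNA methylation in oocytes arrested at metaphase II (MII), the mature unfertilised eggs. Members were the 2000 bp promoter windows whose centre lay within 200 bp of the start of a gene with a core histone symbol, in the older or the newer naming, and linker histones were left out. The rule gave 65 genes, of which 21 are of type H2A, 19 of type H2B, 12 of type H3 and 13 of type H4, with 4 pseudogenes among them. Of these genes, 64 had at least 1 window, in 71 of the 49668 nuclear windows listed for any group, and 64 windows at 59 genes were listed for all 3 groups. No window was listed near H3c7. A level, here and below, is the methylated share of the CpG calls of a window in percent. The window just inside the distance limit, at H2ac21 and 176 bp from its start, had 0.758% in Tet2KO, 0.726% in 11-month WT and 2.42% in 2-month WT, and the first one outside, at H4f16 and 249 bp away, had 0.690% in Tet2KO, 0.429% in 11-month WT and 0.312% in 2-month WT. The groups were oocytes of 2-month Tet2KO females (3 libraries), 11-month wild-type (WT) females (3 libraries) and 2-month WT females (4 libraries), all of a mixed C57BL6/129 strain. Tet2 encodes a dioxygenase that oxidises methylated cytosine. The Tet2 allele is not described in the sources used here, and promoter methylation cannot check the genotype.

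Each group was deposited as 1 pooled table, so every window had 1 value per group and no spread between libraries. No test between groups could be made, and the 95% intervals below cover counting error only. They are too narrow as far as calls came from the same read or from copies of 1 molecule. The sources differ on whether a library held 10 oocytes or a single one. Nuclear windows held 5464356 CpG calls in Tet2KO, 16993859 in 11-month WT and 9392359 in 2-month WT. The labelled cell type was checked at imprinted promoters, and 10 of the 11 maternally methylated ones were at 20% or more in every pool, with medians of 93.8% in Tet2KO, 96.1% in 11-month WT and 96.1% in 2-month WT. The exception was Grb10, at 1.49% in Tet2KO, 2.33% in 11-month WT and 2.38% in 2-month WT. Of the 3 paternally methylated ones, Meg3 stood at 2.22% in Tet2KO, 6.67% in 11-month WT and 23.4% in 2-month WT, and H19 and Rasgrf1 were under 5% in every pool. All these windows were placed by gene start. Whether each covers the imprinted mark of its gene was not checked, for Grb10 and the paternally methylated genes included.

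Core histones form the protein spool around which DNA is wrapped in the nucleosome. Their replication-dependent genes lie in clusters, are read mainly in S phase, when new DNA needs new nucleosomes, and give mRNAs that end in a stem-loop in place of a poly(A) tail. Many H2A and H2B genes sit head to head and share the DNA between their starts, with CCAAT boxes, TATA boxes and, at H2B genes in particular, an octamer element. The MII oocyte does not replicate its DNA, but it carries stored histone protein and mRNA for the first divisions of the embryo. Methylation of CpG sites around a promoter is commonly associated with a silent gene.

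The sequences below are the 250 bases upstream of the start, read 5′ to 3′ on the gene's strand, from RefSeq on GRCm38.p6, with each CpG in capitals. They were chosen as 1 example, with a difference of 20 points or more, from each of the clusters on chromosomes 3 and 11 and both groups on chromosome 13, together with H4c18, the near-identical copy of H4c17. The first 5 come from the genes H2ac19 (chr3:96240375-96240624, minus strand), H4c17 (chr13:21811496-21811745, plus), H4c18 (chr13:21832198-21832447, minus), H2aw (chr11:58954435-58954684, plus) and H2ac6 (chr13:23683960-23684209, minus).
H2ac19: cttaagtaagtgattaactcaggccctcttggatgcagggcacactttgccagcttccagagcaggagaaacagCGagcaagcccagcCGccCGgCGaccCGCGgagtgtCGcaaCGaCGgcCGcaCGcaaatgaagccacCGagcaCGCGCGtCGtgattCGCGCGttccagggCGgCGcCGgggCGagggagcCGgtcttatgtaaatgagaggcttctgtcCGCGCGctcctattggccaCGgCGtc
H4c17: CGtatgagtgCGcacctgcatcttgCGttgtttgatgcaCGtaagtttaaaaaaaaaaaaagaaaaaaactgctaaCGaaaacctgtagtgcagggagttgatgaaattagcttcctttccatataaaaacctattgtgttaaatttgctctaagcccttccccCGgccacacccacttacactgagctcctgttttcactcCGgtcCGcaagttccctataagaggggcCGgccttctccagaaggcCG
H4c18: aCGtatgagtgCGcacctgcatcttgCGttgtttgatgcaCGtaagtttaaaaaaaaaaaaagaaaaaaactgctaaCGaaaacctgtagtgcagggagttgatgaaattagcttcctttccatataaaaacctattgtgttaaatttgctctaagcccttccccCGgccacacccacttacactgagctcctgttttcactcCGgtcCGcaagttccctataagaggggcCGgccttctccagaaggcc
H2aw: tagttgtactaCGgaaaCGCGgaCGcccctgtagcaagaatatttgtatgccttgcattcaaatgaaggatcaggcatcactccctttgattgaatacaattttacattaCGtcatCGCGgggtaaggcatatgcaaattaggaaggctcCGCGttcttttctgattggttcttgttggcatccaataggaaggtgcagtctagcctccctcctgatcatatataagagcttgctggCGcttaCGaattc
H2ac6: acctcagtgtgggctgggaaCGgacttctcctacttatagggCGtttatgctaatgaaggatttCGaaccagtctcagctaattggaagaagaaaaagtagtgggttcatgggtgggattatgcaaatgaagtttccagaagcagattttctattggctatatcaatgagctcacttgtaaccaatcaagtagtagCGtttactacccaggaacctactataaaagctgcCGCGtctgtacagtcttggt
The H2ac19 stretch held 29 CpGs, against 10 in H4c17, 9 in H4c18, 11 in H2aw and 6 in H2ac6.

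The next stretches belong to genes whose 2-month WT pool was not the highest. H2ac15 (chr13:21753913-21754162, minus) is the H2A member of a divergent pair. H2bc6 has 2 annotated starts on the minus strand. The stretch before the distal one is chr13:23621095-23621344, and that before the proximal one is chr13:23585971-23586220.
H2ac15: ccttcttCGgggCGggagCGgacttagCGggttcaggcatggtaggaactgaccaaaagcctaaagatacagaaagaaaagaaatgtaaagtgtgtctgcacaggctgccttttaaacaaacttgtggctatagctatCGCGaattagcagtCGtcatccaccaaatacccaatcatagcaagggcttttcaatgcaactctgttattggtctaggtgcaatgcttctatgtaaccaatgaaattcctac
H2bc6 distal start: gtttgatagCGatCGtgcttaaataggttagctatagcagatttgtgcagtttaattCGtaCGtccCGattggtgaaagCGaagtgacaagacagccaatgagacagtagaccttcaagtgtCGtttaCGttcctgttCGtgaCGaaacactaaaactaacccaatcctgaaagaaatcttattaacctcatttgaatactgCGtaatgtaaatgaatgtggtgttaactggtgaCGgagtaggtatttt
H2bc6 proximal start: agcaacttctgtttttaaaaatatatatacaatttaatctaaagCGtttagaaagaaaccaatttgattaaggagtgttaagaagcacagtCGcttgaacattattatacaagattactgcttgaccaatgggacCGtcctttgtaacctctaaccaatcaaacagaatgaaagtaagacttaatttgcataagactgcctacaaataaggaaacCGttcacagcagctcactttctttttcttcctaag
The distal H2bc6 stretch held 12 CpGs and the proximal one 4. The last stretch, of the testis-type H2B gene H2bc1 (chr13:23934157-23934406, minus), is shown with its octamer letters in capitals instead, as an example of that element.
H2bc1: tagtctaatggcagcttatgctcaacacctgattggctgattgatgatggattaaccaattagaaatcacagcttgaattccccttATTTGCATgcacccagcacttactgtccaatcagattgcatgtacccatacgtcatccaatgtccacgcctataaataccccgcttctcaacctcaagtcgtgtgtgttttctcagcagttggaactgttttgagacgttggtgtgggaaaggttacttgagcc

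RefSeq's promoter table held 57 starts of 56 of the genes. The remaining 9 (H2bc21, H4c14, H2bu1-ps, H2ac14, H2bc4, H3c1, H2ac5-ps, H2af-ps2 and H3c7) were placed by the ends of the gene. In the 250 bases upstream, searched on both strands with motifs of which none contains another, CCAAT occurred in 46 of 57 histone entries (80.7%), against 33.8% of all 32851 promoters in the table. It was found in all 18 H2A and all 17 H2B entries, in 8 of 10 H3 entries and in 3 of 12 H4 entries. TATAAA occurred in 25 (43.9%, against 12.4% of all promoters). ATTTGCAT, the octamer, occurred in 14 (24.6%, against 1.60% of all), of which 7 were H2A, 7 were H2B and none was H3 or H4. The stretches held a median of 9 CpGs (2 to 34), against 6 over all promoters (0 to 56). Starts of 10 H2A and H2B pairs faced away from each other across 164 to 281 bp. The upstream stretches of such a pair overlap in large part, so an element between the starts can be counted for both genes. Of the 10 pairs, 3 had an octamer. The motif counts above are therefore not counts of separate elements. Windows of such pairs overlap almost entirely and share their calls, and the 64 shared windows made up 36 separate loci.

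Core histone promoters were weakly methylated in Tet2KO and 11-month WT oocytes and less uniformly so in 2-month WT oocytes. The median over the 64 windows was 1.66% in Tet2KO, 1.73% in 11-month WT and 2.86% in 2-month WT. Over all 40537 shared windows it was 2.17% in Tet2KO, 2.72% in 11-month WT and 3.23% in 2-month WT. The medians thus lay close together, and the pools differed more in the upper tail.

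Levels under 5% were found in 54 of the 64 windows in Tet2KO (84.4%), in 54 in 11-month WT (84.4%) and in 35 in 2-month WT (54.7%). Among all shared windows the share under 5% was 65.2% in Tet2KO, 64.2% in 11-month WT and 58.9% in 2-month WT. Levels of 10% or more were found in 3 windows in Tet2KO (4.69%), in 7 in 11-month WT (10.9%) and in 19 in 2-month WT (29.7%). Among all shared windows the share at 10% or more was 25.4% in Tet2KO, 25.0% in 11-month WT and 28.8% in 2-month WT. Histone windows are rich in CpG, with a median of 82.0 covered positions in the pool that covered most, against 60.0 over all windows, so windows with 40 or more covered positions are a closer background. In those 25749 windows the share under 5% was 78.9% in Tet2KO, 78.2% in 11-month WT and 69.3% in 2-month WT, so the Tet2KO and 11-month WT shares of the histone windows lay near it. The share at 10% or more there was 12.3% in Tet2KO, 11.8% in 11-month WT and 17.4% in 2-month WT. The 2-month WT pool was the highest of the 3 in 38 of the 64 histone windows (59.4%), against 36.4% of all shared windows and 40.9% of those with 40 or more covered positions. The depth of the histone windows also differed, with a median of 100 calls in Tet2KO, 244 in 11-month WT and 193 in 2-month WT, and its part in these shares was not tested.

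**Figure D1:**
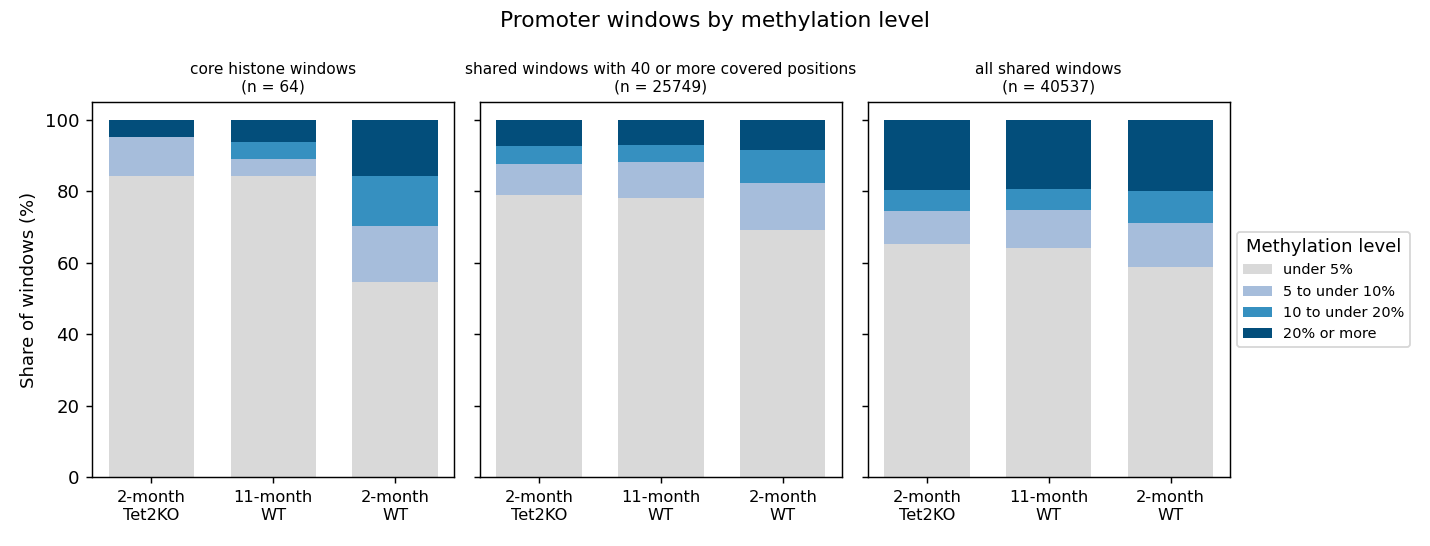
Share of promoter windows (percent, vertical axis) in 4 classes of methylation level in the 2-month Tet2KO, 11-month WT and 2-month WT pools, for the 64 core histone windows, the shared windows with 40 or more covered positions and all shared windows. Histone windows under 5% made up 84.4% in Tet2KO, 84.4% in 11-month WT and 54.7% in 2-month WT.

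In the plot of level classes, 4.69% of histone windows in Tet2KO and 6.25% in 11-month WT were at 20% or more, against 7.35% in Tet2KO and 6.99% in 11-month WT for windows with 40 or more covered positions. The 2-month WT pool held 15.6% of histone windows at 20% or more, against 8.45%. Its middle classes were also fuller. In 2-month WT 15.6% of histone windows lay from 5% to 10% and 14.1% from 10% to 20%, against 13.2% and 8.98% of the windows with 40 or more covered positions. In all, 26 histone windows (40.6%) were under 5% in every pool, against 46.6% of all shared windows and 60.0% of those with 40 or more covered positions.

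**Figure D2:**
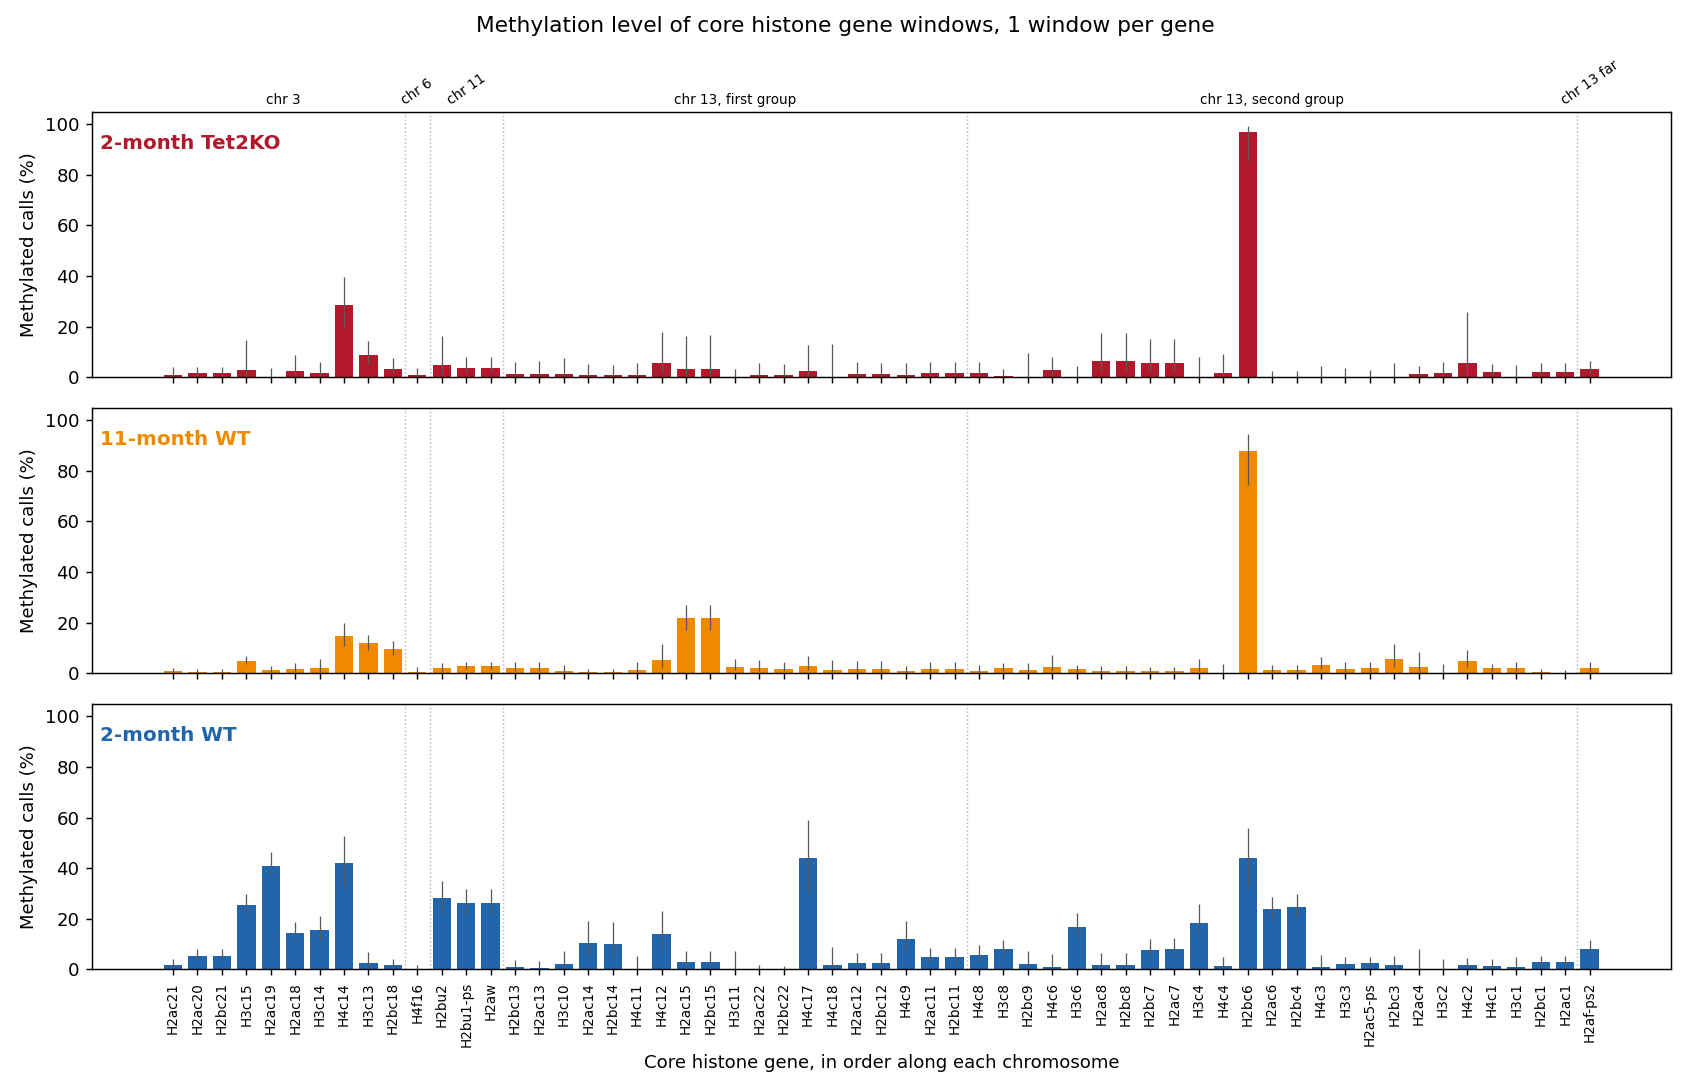
Methylation level (percent, with 95% Wilson intervals) of each core histone gene promoter in the 2-month Tet2KO, 11-month WT and 2-month WT pools, in order along each chromosome, as bars with the intervals as lines. The 2-month WT bars reach up to 44.2%, while in Tet2KO only H4c14 and H2bc6, and in 11-month WT only H2ac15, H2bc15 and H2bc6, reach 20%.

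With 1 window per gene, the median level of the 18 H2A genes was 1.41% in Tet2KO, 1.56% in 11-month WT and 3.98% in 2-month WT. For the 17 H2B genes it was 1.69% in Tet2KO, 1.73% in 11-month WT and 2.99% in 2-month WT. For the 11 H3 genes it was 0.559% in Tet2KO, 1.95% in 11-month WT and 2.40% in 2-month WT. The 13 H4 genes had the flattest medians, at 1.69% in Tet2KO, 1.89% in 11-month WT and 1.64% in 2-month WT. Every type had members at 10% or more in the 2-month WT pool, with 5 H2A, 5 H2B, 4 H3 and 4 H4 genes. These 18 of 59 genes made up 30.5%, near the 28.8% of all shared windows. Among windows with 40 or more covered positions the share was 17.4%. Several of these genes share or overlap windows, so they are not separate promoters.

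Medians spread more between clusters than between types. The 3 genes on chromosome 11 had a median of 3.52% in Tet2KO, 2.70% in 11-month WT and 26.4% in 2-month WT. Of these, H2aw and H2bu1-ps share 1 window, so the median is the value of that window. The 10 genes on chromosome 3 had a median of 2.14% in Tet2KO, 1.79% in 11-month WT and 9.88% in 2-month WT. Here H2ac20 and H2bc21 were given the same window, which is counted for both. The 2-month WT median lies midway between its 5.43% and the 14.3% of H2ac18. Windows of other neighbours in this cluster overlap in part. On chromosome 13, the 19 genes of the cluster nearer the start of the chromosome had a median of 1.09% in Tet2KO, 1.73% in 11-month WT and 2.55% in 2-month WT. The 25 genes of the larger cluster beyond it had a median of 1.68% in Tet2KO, 1.47% in 11-month WT and 2.15% in 2-month WT. The lone H4 gene H4f16 on chromosome 6 was low throughout, at 0.680% in Tet2KO, 0.427% in 11-month WT and 0.304% in 2-month WT.

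The age comparison set 11-month WT against 2-month WT oocytes. In the 11-month pool 41 histone windows were lower (64.1%), 22 were higher and 1 was equal. The share that was lower was 47.7% over all shared windows and 51.3% over those with 40 or more covered positions. The median difference was -1.18 percentage points, against 0 over all windows and -0.0673 over those with 40 or more positions. Differences of 20 points or more were counted, a size set as a fixed rule. In the lower direction 8 of 64 histone windows passed it (12.5%, at 6 loci), against 2.76% of all shared windows. In the higher direction 2 windows passed it, against 2.78% of all, and both belong to H2bc6. Among windows with 40 or more covered positions, 8 of 62 histone windows were lower, against 1.91% of all 25749 such windows, and 0 were higher, against 1.08%. The 8 lower windows served H2ac19, H2aw with H2bu1-ps, H2ac6, H2bu2, H2bc4, H3c15, H4c17 and H4c14. The windows of H2bc6, H2bu2, H3c15 and H4c17 have under 50 calls in at least 1 pool. For H2bu2 and H3c15 this is Tet2KO alone, which is not part of the age comparison. With 10 points as the limit, 15 histone windows were lower (23.4%, against 7.74% of all) and 4 were higher (against 6.36%).

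The genotype comparison set 2-month Tet2KO against 2-month WT oocytes. It shares the 2-month WT pool with the age comparison, so a value peculiar to that pool enters both, and the 2 sets of differences are given side by side only. The median difference was -1.65 points, against -0.241 over all shared windows and -0.499 over those with 40 or more covered positions. In Tet2KO 41 windows were lower (64.1%), 22 higher and 1 equal, and the share that was lower was 52.6% over all windows and 58.9% with 40 or more positions, not far from that of the members. Of the 64 histone windows, 7 were lower by 20 points or more (10.9%, at 5 loci), against 3.22% of all windows, and 2 were higher, against 3.29%. The 7 lower windows served H2ac19, H2aw with H2bu1-ps, H2ac6, H2bu2, H2bc4, H3c15 and H4c17, and the 2 higher ones H2bc6. With 40 or more covered positions, 7 of 62 histone windows were lower, against 2.15% of such windows, and 0 were higher, against 1.43%. At 10 points the counts were 14 lower (21.9%, against 8.97% of all) and 2 higher (against 7.21%).

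Setting Tet2KO against 11-month WT leaves out the 2-month WT pool, but age and genotype then differ together. No histone window differed by 20 points or more in either direction, against 2.09% of all windows higher and 1.94% lower, or 0.897% higher and 0.777% lower with 40 or more covered positions. The median difference was 0.00881 points, with 32 windows higher and 32 lower, against -0.394 and a lower share of 55.9% over all windows. At 10 points 1 window was higher in Tet2KO (against 5.67% of all), that of H4c14, and 2 were lower (against 5.83%), the overlapping windows of H2ac15 and H2bc15. Next came the higher differences of H2bc6 (9.34), H2ac8 and H2bc8 (5.69 each) and H2bc7 (4.60), and the lower ones of H2bc18 (-6.12), H2bc3 (-5.45), H3c13 (-3.08) and H4c3 (-3.08).

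**Figure D3:**
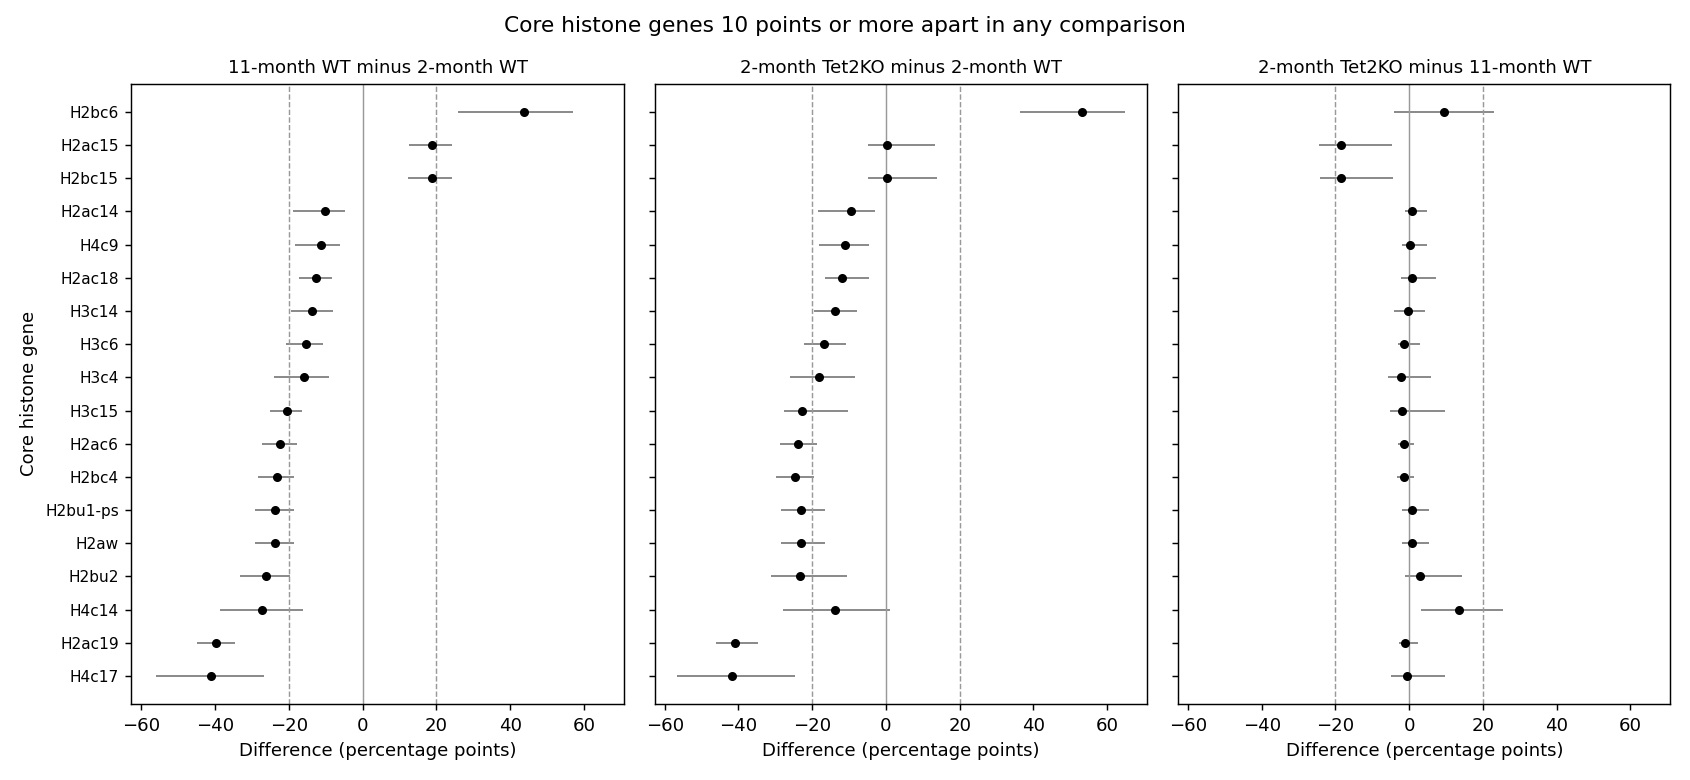
Difference in methylation level (percentage points, with 95% Newcombe intervals) for the core histone genes 10 points or more apart in any of 3 contrasts: 11-month WT minus 2-month WT, Tet2KO minus 2-month WT and Tet2KO minus 11-month WT. Dashed lines mark 20 points: H4c17 and H2ac19 lie far below in both contrasts with 2-month WT, H2bc6 far above, and no gene passes them in the third.

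H2A genes. H2ac19, one of a pair of nearly identical H2A genes on chromosome 3, had 0 of 102 calls methylated in Tet2KO, which allows a level of up to 2.94%, 6 of 475 (1.26%) in 11-month WT and 143 of 349 (41.0%, interval 35.9 to 46.2%) in 2-month WT. Only the 2-month WT pool was high. The difference was -39.7 points for 11-month WT minus 2-month WT (interval -45.0 to -34.5) and -41.0 for Tet2KO minus 2-month WT (-46.2 to -34.8). Its copy H2ac18, whose promoter matches it at 251 of 260 aligned positions (96.5%), had 2 of 79 calls (2.53%) in Tet2KO, 4 of 245 (1.63%) in 11-month WT and 42 of 293 (14.3%, 10.8 to 18.8%) in 2-month WT. Both copies were thus highest in the same pool, at different levels. How reads were divided between such copies is not given in the sources used here, so the values of near-identical pairs are uncertain.

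H2aw, the H2A gene of the chromosome 11 cluster, had 5 of 142 calls (3.52%) in Tet2KO, 14 of 518 (2.70%) in 11-month WT and 79 of 299 (26.4%, 21.7 to 31.7%) in 2-month WT. The window is shared with the pseudogene H2bu1-ps. The difference was -23.7 points for 11-month WT minus 2-month WT (-29.1 to -18.7) and -22.9 for Tet2KO minus 2-month WT (-28.5 to -16.4). By the deposited fraction the first was -18.9. H2ac6, on chromosome 13, had 0 of 142 calls in Tet2KO (up to 2.11%), 5 of 367 (1.36%) in 11-month WT and 79 of 332 (23.8%, 19.5 to 28.7%) in 2-month WT, a difference of -22.4 points by age and -23.8 by genotype. With the deposited fraction, the authors' mean over positions, these were -11.8 and -12.9, under 20 points. The neighbouring H2B gene H2bc4 is covered by nearly the same calls, with 24.7% in 2-month WT, and its differences were -23.3 and -24.7 by calls but -12.5 and -13.6 by the fraction. H2ac14, also H2A, had 0.962% in Tet2KO, 0.325% in 11-month WT and 10.4% in 2-month WT (77 calls).

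One H2A promoter reached 20% in the 11-month pool. H2ac15 had 1 of 31 calls (3.23%) in Tet2KO, 59 of 272 (21.7%, 17.2 to 27.0%) in 11-month WT and 4 of 136 (2.94%) in 2-month WT. It was higher by 18.8 points in 11-month WT than in 2-month WT (12.5 to 24.3) and differed by -18.5 for Tet2KO minus 11-month WT (-24.4 to -4.74). The divergent partner H2bc15 has the same 59 of 272 calls, so the pair is 1 locus. Averaged per position, the authors' deposited fraction gives 13.9% in 11-month WT, and the differences were then 11.9 and -10.2. H2ac8 and its partner H2bc8 had 6.52% of 46 calls each in Tet2KO, a count of 3, and the intervals of both against 2-month WT reach below 0.

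The other H2A genes of chromosome 3 had lower levels. H2ac21 had 0.730% in Tet2KO, 0.743% in 11-month WT and 1.86% in 2-month WT. H2ac20, whose window also served the H2B gene H2bc21, had 1.61% in Tet2KO, 0.515% in 11-month WT and 5.43% in 2-month WT. With 249 calls in Tet2KO it was the best-covered histone promoter of that pool. A further, overlapping window of H2bc21 alone had 1.67% in Tet2KO, 0.990% in 11-month WT and 5.20% in 2-month WT. The testis-type H2A gene H2ac1, which supplies a germ-cell form of the protein, had 1.95% in Tet2KO, 0.252% in 11-month WT and 2.81% in 2-month WT, so it was low in every pool.

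H2B genes. H2bc6 had the highest level of all members in Tet2KO and in 11-month WT. It had 34 of 35 calls methylated in Tet2KO (97.1%, 85.5 to 99.5%), 36 of 41 (87.8%, 74.5 to 94.7%) in 11-month WT and 29 of 66 (43.9%, 32.6 to 55.9%) in 2-month WT. The difference was 43.9 points for 11-month WT minus 2-month WT (25.9 to 57.1) and 53.2 for Tet2KO minus 2-month WT (36.5 to 64.8), while Tet2KO minus 11-month WT was 9.34 (-4.21 to 22.9). The windows lie on the distal annotated start, 35124 bp from the proximal one, near which no window was listed. The distal start lies 683 bp beyond the end of the linker histone gene H1f4, and the H1f4 window overlaps, with 58.3% in Tet2KO, 58.9% in 11-month WT and 22.5% in 2-month WT. The H2bc6 values therefore describe a stretch that includes part of the H1f4 gene. They do not describe the proximal start, whose upstream sequence is also printed above.

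H2bu2, the H2B gene of the chromosome 11 cluster, had 2 of 41 calls (4.88%) in Tet2KO, 6 of 311 (1.93%) in 11-month WT and 51 of 181 (28.2%, 22.1 to 35.1%) in 2-month WT. The difference was -26.2 points by age (-33.3 to -19.8) and -23.3 by genotype (-31.1 to -10.5), or -19.2 and -16.5 by the deposited fraction. Both windows of this cluster were thus high in 2-month WT alone. H2bc18, on chromosome 3, was highest in the 11-month pool, with 5 of 146 calls (3.42%) in Tet2KO, 38 of 398 (9.55%) in 11-month WT and 5 of 290 (1.72%) in 2-month WT, a difference of 7.82 points by age (4.45 to 11.3). The testis-type H2B gene H2bc1, whose octamer is shown above, had 1.95% in Tet2KO, 0.471% in 11-month WT and 2.90% in 2-month WT.

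H3 genes. H3c15, the neighbour of H2ac19 in the chromosome 3 cluster, had 1 of 35 calls (2.86%) in Tet2KO, 32 of 649 (4.93%) in 11-month WT and 117 of 458 (25.5%, 21.8 to 29.7%) in 2-month WT. The difference was -20.6 points by age (-25.0 to -16.4) and -22.7 by genotype (-27.5 to -10.4). Its copy H3c14, identical at 284 of 285 aligned promoter positions (99.6%), had 1.74% in Tet2KO, 1.95% in 11-month WT and 15.6% in 2-month WT (212 calls). Windows of H3c15 and H2ac19 overlap in part and are not independent. The same holds for H3c14 with H2ac18 and for H3c13 with H2bc18. H3c6, on chromosome 13, had 0 of 86 calls in Tet2KO (up to 3.49%), 6 of 409 (1.47%) in 11-month WT and 37 of 220 (16.8%) in 2-month WT. H3c4 had 0 of 44 in Tet2KO (up to 6.82%), 4 of 177 (2.26%) in 11-month WT and 22 of 121 (18.2%) in 2-month WT. H3c13, next to H2bc18, ran the other way, with 13 of 150 calls (8.67%) in Tet2KO, 49 of 417 (11.8%) in 11-month WT and 3 of 125 (2.40%) in 2-month WT, a difference of 9.35 points by age (4.15 to 13.1).

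H4 genes. H4c17 had 1 of 41 calls (2.44%) in Tet2KO, 5 of 164 (3.05%) in 11-month WT and 19 of 43 (44.2%, 30.4 to 58.9%) in 2-month WT. The difference was -41.1 points by age (-55.9 to -26.8) and -41.7 by genotype (-56.6 to -24.7). H4c18, identical to it at 298 of 299 aligned promoter positions (99.7%), had 0 of 25 calls in Tet2KO (up to 12.0%), 2 of 137 (1.46%) in 11-month WT and 1 of 61 (1.64%) in 2-month WT. The 2 printed sequences thus carry almost the same letters, and their windows had different levels in the 2-month WT pool. How reads were divided between these copies is not given either, so both values are uncertain. The window of H4c17 had the fewest calls of the members at 20% or more in that pool.

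H4c14, on chromosome 3, was methylated in every pool, with 21 of 74 calls (28.4%, 19.4 to 39.5%) in Tet2KO, 37 of 250 (14.8%, 10.9 to 19.7%) in 11-month WT and 35 of 83 (42.2%, 32.1 to 52.9%) in 2-month WT. The difference was -27.4 points by age (-38.8 to -16.2). Against 2-month WT the Tet2KO difference of -13.8 had an interval that included 0 (-27.8 to 1.21), while by the deposited fraction it was -27.2, past 20 points, and Tet2KO minus 11-month WT was 13.6 (3.31 to 25.4). H4c9 had 1.01% in Tet2KO, 0.806% in 11-month WT and 12.0% in 2-month WT (117 calls). H4c12 had 5.41% in Tet2KO, 5.21% in 11-month WT and 14.1% in 2-month WT (85 calls). Its near-identical copy H4c11 matches it at 274 of 286 aligned promoter positions (95.8%). At H4c11 the 2-month WT pool held 69 calls, of which 0 were methylated (up to 4.35%). Tet2KO stood at 1.04% there, and 11-month WT at 1.22%. Only 1 copy was thus raised in 2-month WT, and the values of this pair are uncertain for the same reason of read placing. The thinnest window was that of H4c2, with 18 calls in Tet2KO, 1 of them methylated, and its interval for Tet2KO minus 2-month WT was -1.57 to 24.0. H4c1, among the best covered with 227 calls in Tet2KO, had 2.20% in Tet2KO, 1.89% in 11-month WT and 1.45% in 2-month WT.

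Besides H3c7, 5 genes were not listed in every pool. H2ac24 and H4bc24, a divergent H2A and H2B pair (H4bc24 was formerly Hist1h2br), were listed for 2-month WT alone, with 25 of 60 calls (41.7%, 30.1 to 54.3%) and 25 of 59 (42.4%, 30.6 to 55.1%) methylated. Their promoters are identical, over the 200 and 300 aligned positions, to those of H2ac23 and H2bc23, which had 0 of 23 calls in Tet2KO and 1 of 24 (4.17%) in 2-month WT. The placing of reads from identical copies is not described either, and the values of these 4 genes are uncertain. H2ac10, the last of the 5, had 1.66% in 11-month WT and 0.781% in 2-month WT.

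**Figure D4:**
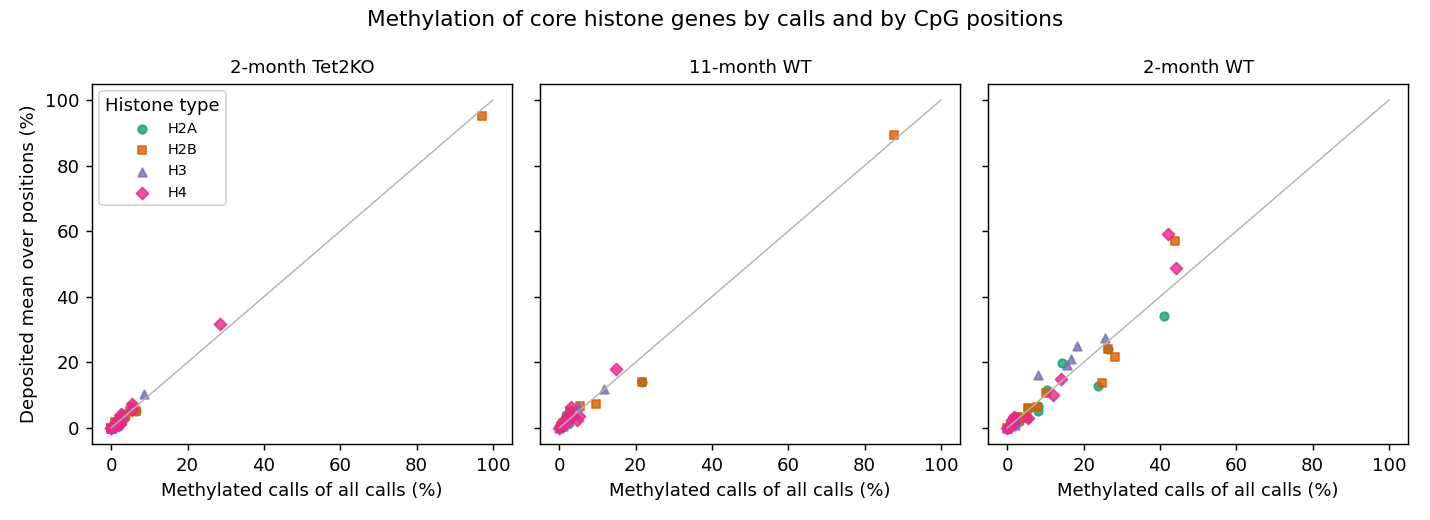
Deposited fraction, as the authors' mean over covered CpG positions (percent, vertical axis), against the share of methylated calls (percent, horizontal axis) of each core histone gene in the 2-month Tet2KO, 11-month WT and 2-month WT pools, with a marker for each histone type and a line where both are equal. Most points follow the diagonal, H4c14 lies above it at 59.0% in 2-month WT, and H2ac6 lies below it at 12.9%.

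The authors' deposited fraction gives each covered position the same weight, where the level weights positions by their calls. The plot of fraction against level shows the 2 to be close in most windows. In 2-month WT the fraction was 34.1% for H2ac19, 12.9% for H2ac6, 21.5% for H2bu2, 27.4% for H3c15, 48.7% for H4c17 and 59.0% for H4c14. By the fraction, H3c4 differed by -22.6 points by age and -25.1 by genotype and H3c6 by -20.9 by genotype, which were under 20 points by calls. The number of upstream CpGs showed little relation to the level over 51 genes, with Spearman's rho of 0.01 in Tet2KO, 0.13 in 11-month WT and 0.28 in 2-month WT. These genes overlap in their calls, so the coefficients are a description.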

How the data were processed

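Low-input bisulfite libraries of mouse MII oocytes were pooled by group: 3 libraries of 2-month Tet2KO, 3 of 11-month WT and 4 of 2-month WT. Trimmomatic, Bismark (version field 12.5) and mm10 are named in the submitters' processing notes, with no role. Anything further was not given in the sources used here. Each deposited table holds, per 2000 bp promoter window, counts of methylated, unmethylated and all CpG calls and of covered positions, pooled by the authors over a group. The deposited fraction is the mean over positions of the methylated share, as read from its values. The listed windows have 10 or more calls and 5 or more positions. Bisulfite does not separate methylated from hydroxymethylated cytosine.

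Levels were 100 × methylated calls / all calls. Mitochondrial windows (36.5% of calls in Tet2KO, 44.2% in 11-month WT, 37.6% in 2-month WT) and 1 incomplete line of the 2-month WT table were left out. Single values have Wilson and differences Newcombe 95% intervals, and 0 counts a limit of 3 counts; there were no tests. The calculation was tested on simulated data. Starts and sequences came from RefSeq tables on GRCm38.p6, and promoter alignments were scored over 150 or more columns. Tools were Python 3.11.15, pandas 2.3.3, numpy 2.4.6, Biopython 1.88 and matplotlib 3.10.9.

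Members and gene lists were chosen with earlier results of these data known. Genes were named if they reached 20% in any pool or were among the 5 highest or lowest differences. Testis-type genes, those on chromosomes 3, 6 or 11 and the best or least covered were named too. H2ac14, H4c9, H4c12, H3c6 and H3c4 met none of these rules but were named, and each was highest in 2-month WT. Near-identical copies of named genes and genes not listed in every pool were also named. Other members are given by counts and medians. Of the other lists, the 2 largest differences, and neighbours at 20% or more, were named. Alternatives were the deposited fraction, 50 or more calls, no over-covered windows, 1 window per gene or locus, other distances (50 and 500 bp), a limit of 10 points, windows listed for the pools compared and 40 or more covered positions.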

Additional observations from a re-analysis of the deposited data

How the results depend on the processing

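The median differences against 2-month WT kept their sign under every alternative run. They ranged from -1.69 to -1.12 points for 11-month WT minus 2-month WT and from -1.85 to -1.13 for Tet2KO minus 2-month WT. The alternative without over-covered windows removed none of the 64 windows, so it could not change a value. The median for Tet2KO minus 11-month WT lay between -0.711 and 0.179, on both sides of 0. Counts of windows that differed by 20 points or more moved by over 1.5 times in these cases. For 11-month WT minus 2-month WT, the 2 higher windows became 0 with 50 or more calls in every pool or 40 or more covered positions, 1 with 1 window per gene or per locus and 4 at 10 points. The 8 lower windows became 5 with the deposited fraction, 5 with 50 or more calls in every pool, Tet2KO included, and 15 at 10 points. For Tet2KO minus 2-month WT, the 2 higher windows became 0 with 50 or more calls or 40 or more positions and 1 with 1 window per gene or per locus. The 7 lower windows became 4 with 50 or more calls and 14 at 10 points. By the deposited fraction their count stayed at 7, but the members changed. H2ac6, H2bc4 and H2bu2 dropped out, and H4c14, H3c4 and H3c6 came in. For Tet2KO minus 11-month WT, the count of 0 higher windows became 1 at 10 points, and that of 0 lower windows became 1 within 500 bp of a start and 2 at 10 points. Fewer windows are tested in most of these settings; beyond that, the cause was not tested. The alternatives of 1 window per locus and of 40 or more positions were chosen after seeing the data. Of 36 single-gene differences recomputed with the deposited fraction, none changed sign and 11 fell outside the counting interval of the value by calls, a measure other than the ratio used for counts. Among these 11, H2ac6 stood at -11.8, H2ac19 at -33.4 and H4c14 at -40.9 for 11-month WT minus 2-month WT, and H2ac15 at 11.9. No paired analysis was possible because each group is 1 pooled column, and for the same reason no library could be left out. Tet2KO windows had a median of 100 calls, so levels of a few percent there rest on 1 to 3 calls.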

Other observations

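Other histone genes also differed in level between the pools. The 10 linker histone promoters, whose products bind the DNA between nucleosomes, had a median level of 2.69% in Tet2KO, 2.27% in 11-month WT and 7.24% in 2-month WT. Gene by gene there was no common direction: against 2-month WT, 5 were higher and 5 lower in Tet2KO and likewise in 11-month WT, with median differences of 0.713 and 0.0592 points. H1f2 had 1.60% in Tet2KO, 1.66% in 11-month WT and 30.3% in 2-month WT. H1f4 had 58.3% in Tet2KO, 58.9% in 11-month WT and 22.5% in 2-month WT, in a window that overlaps that of H2bc6. The 8 replication-independent variant promoters, whose histones are placed outside S phase as well, had a median of 1.67% in Tet2KO, 1.68% in 11-month WT and 6.53% in 2-month WT. H3f3b, which encodes H3.3, had 1.09% in Tet2KO, 2.42% in 11-month WT and 37.8% in 2-month WT. H2aj had 1.28% in Tet2KO, 1.57% in 11-month WT and 34.8% in 2-month WT.

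Genes that act on histones or their mRNAs were mostly low in all pools. The 10 chaperone promoters did not exceed 6.15% in any pool, with medians of 1.73% in Tet2KO, 1.86% in 11-month WT and 2.67% in 2-month WT. Asf1a had 2.34% in Tet2KO, 1.47% in 11-month WT and 5.96% in 2-month WT, and Hira had 1.22% in Tet2KO, 2.46% in 11-month WT and 5.78% in 2-month WT. The 15 histone mRNA regulators had medians of 1.35% in Tet2KO, 2.54% in 11-month WT and 2.22% in 2-month WT. Among them Zfp473, a zinc finger protein of histone mRNA processing that is named for its level after the values were seen, had 97.3% in Tet2KO, 96.8% in 11-month WT and 98.6% in 2-month WT. Ncbp2, a subunit of the cap-binding complex, had 1.19% in Tet2KO, 3.01% in 11-month WT and 10.8% in 2-month WT, and Npat, a coactivator of histone genes, had 6.67% in Tet2KO, 2.54% in 11-month WT and 1.28% in 2-month WT.

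Of 64 other genes lying among the chromosome 13 clusters, 15 had a window of their own listed in every pool, and 1 window served a pair of them. Over the 14 windows the medians were 3.11% in Tet2KO, 3.69% in 11-month WT and 2.16% in 2-month WT. These windows were thinner than the histone windows. Their median calls were 28.0 in Tet2KO, 64.5 in 11-month WT and 55.0 in 2-month WT, against 100, 244 and 193. Those at 20% or more in any pool were Btn2a2, Hfe and 4933404K08Rik. Btn2a2 had 90.0% in Tet2KO, 84.0% in 11-month WT and 91.9% in 2-month WT. Hfe had 54.8% in Tet2KO, 20.9% in 11-month WT and 20.7% in 2-month WT. 4933404K08Rik had 23.3% in Tet2KO, 16.3% in 11-month WT and 30.0% in 2-month WT. The Tet2KO values rest on 20 calls for Btn2a2, 31 for Hfe and 30 for 4933404K08Rik.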
